A study of Rattus norvegicus with 22 samples.

Results

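The genes described here encode the TGF-beta and bone morphogenetic protein (BMP) signalling system of the rat, and they were read in RNA from the ventral cervical spinal cord. Members were taken by gene symbol: the Tgfb and Tgfbr genes 1 to 3, the numbered Bmp and Bmpr genes, the activin receptor (Acvr) and inhibin (Inh) genes, the Smad and Ltbp genes, the numbered Gdf genes, Grem1 and Nog. These were 55 of the 32883 genes in the table of read counts, namely 28 ligands, 12 receptors, 8 SMADs, 6 latent binding proteins and antagonists, and the protease Bmp1.

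TGF-beta is secreted in a latent complex with a latent TGF-beta binding protein (LTBP), which tethers it to matrix fibres until integrins, thrombospondin or proteases release it, whereas BMPs and growth differentiation factors are restrained by secreted antagonists such as noggin. Released ligands bring type I and type II receptor kinases together, and these phosphorylate receptor SMADs (Smad2 and Smad3 for TGF-beta and activin, Smad1, Smad5 and Smad9 for BMP) that enter the nucleus with Smad4, while Smad6 and Smad7 inhibit the relay. In the cord, BMPs from the roof plate pattern dorsal cell types during development, and TGF-beta acts on microglia, astrocytes, vessels and meningeal fibroblasts in the adult.

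The study asked how loss of the gonads alters gene expression in this tissue in each sex. All animals were Sprague-Dawley rats of 3 to 4 months. The groups were 5 males with testes (intact males 1, 2, 3, 5 and 6), 5 castrated males (GDX males 1, 2, 4, 5 and 6), 6 females with ovaries (intact females 1 to 6) and 6 ovariectomized females (OVX females 1 to 6). Tissue was taken 2 weeks after surgery, the controls were age-matched with gonads in place and no sham operation is stated, and every rat was perfused with cold saline before segments C3 to C6 were removed and their dorsal part discarded. Each rat gave 1 library, with 12371756 to 17571887 reads assigned to genes. Between 11290 and 17082 of these fell on members, 0.0926% ± 0.0046 (SD, n = 22) of the reads. Levels are given as CPM, read counts relative to the depth of the library after scaling by TMM factors, and they are compared between rats. Transcript lengths were not at hand, so where genes are ordered by CPM the order is one of reads and not of transcripts. No reads for a gene allow at most 3 reads, or 0.167 to 0.241 CPM by library, and since the reads carry no molecular identifiers such limits cover counting error only. The libraries were put here into a long and a short fragment class by the average input fragment size that the study's mapping table lists, which falls into separate ranges. All GDX and OVX libraries are short, as are those of intact females 1 and 4 and of intact males 2 and 5. The remaining 7 intact rats form the long class.

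Enough reads for a test were found for 39 of the 55 members, 38 of them in all 5 comparisons of groups made here. All 12 receptors, all 8 SMADs, all 6 latent binding proteins and antagonists and Bmp1 were tested, against 12 of 28 ligands. Bmp10, Gdf1, Gdf2, Gdf3 and Inhbc had no read in any rat. The other 11 untested ligands, with the highest count in a library, were Bmp3 with 14 reads, Gdf5 with 13, Bmp15 and Bmp8a with 12, Gdf10 with 10, Gdf9 with 8, Gdf6 and Gdf7 with 5, Gdf15 with 4, Inhbe with 2 and Bmp8b with 1. Bmp5 passed the filter on low counts in 3 comparisons. Among tested members the mean over all rats ran from 0.638 CPM for Bmp5 to 139 CPM for the type II receptor gene Bmpr2. Summed over all 55 members, the mean ± SD was 883 ± 15 CPM for the 5 intact males, 949 ± 27.3 for the 5 GDX males, 913 ± 34.3 for the 6 intact females and 954 ± 28.2 for the 6 OVX females. The lowest GDX male, at 918 CPM, lay above the highest intact male at 907. As a share of reads without TMM scaling these groups overlapped, with GDX male 6 at 0.0879% and intact male 2 at 0.0945%. No test was made of the sum or the share.

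Castration was accompanied by higher RNA of 10 members and lower RNA of none. Those that rose were 3 of the 6 latent binding proteins and antagonists (Ltbp1, Ltbp2 and Ltbp4), 3 of 11 tested ligands (Tgfb1, Bmp4 and Bmp6) and 4 of 12 receptors (Tgfbr1, Tgfbr2, Tgfbr3 and Bmpr1a). None of the 8 SMADs passed the test. A gene is called here when its adjusted p is under 0.1 in edgeR's quasi-likelihood test, with Benjamini-Hochberg adjustment over all genes tested, and these p-values rest on the spread between rats. The 10 higher members were 10 of 38 tested, where 6.78% of all 14931 genes tested were called higher, 6.58% lower and 13.4% in either direction. An unadjusted p under 0.05 was reached by 14 of 38 members and by 23.8% of all genes tested. The median log2 fold change was 0.13 over the members, with 26 positive and 12 negative, and 0.0021 over all genes tested. By role the median was 0.43 for latent binding proteins and antagonists, 0.16 for ligands, 0.14 for receptors and 0.10 for SMADs. In 6 of the 38 members, Ltbp1, Ltbp2, Ltbp4, Tgfb1, Bmp4 and Bmpr1a, every GDX male lay above every intact male, as did 3.76% of all genes tested. GDX male 5 had the highest level of its group in 8 of the 10 called members. Intact male 2 was the lowest of its group in 5 and the highest in 2, and intact male 6 the lowest in 3 and the highest in 5. In bulk RNA a change in the number of cells of a type and in the RNA per cell cannot be told apart. Changes in both sexes are drawn in the plot of all tested members by role.

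**Figure D1:**
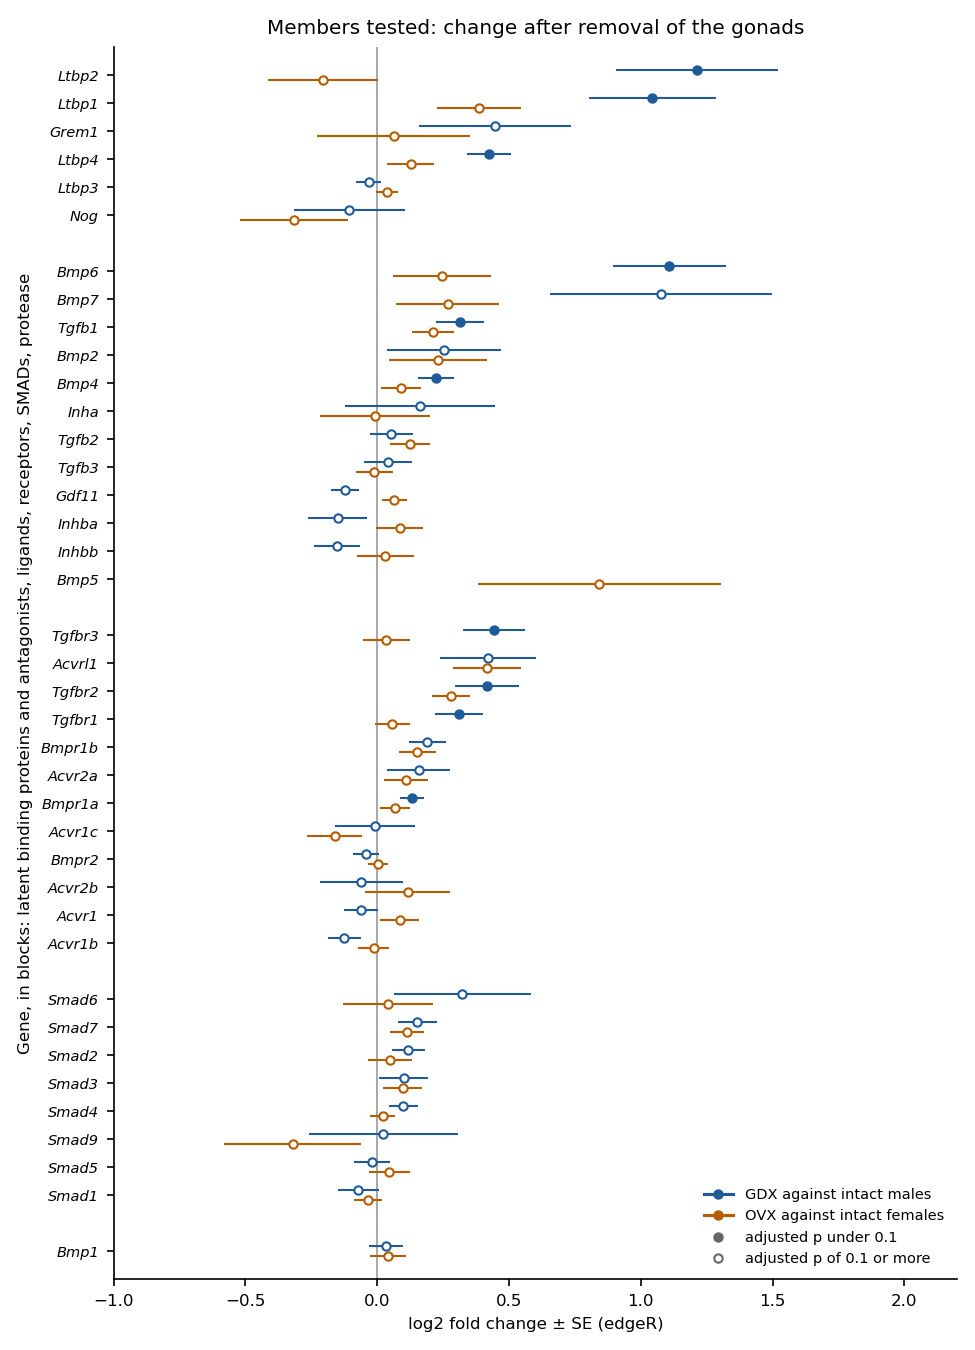
Each point is the log2 fold change of 1 tested member after removal of the gonads, with a bar of ± SE from edgeR, GDX against intact males in blue and OVX against intact females in orange. Filled points have an adjusted p under 0.1, which 10 members reached in males and 0 in females.

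Ltbp2, Ltbp4, Bmp6 and Tgfbr3 were called both in the male comparison and between intact males and intact females, which share the 5 intact males, and the promoters of these 4 genes are shown for that reason. RefSeq promoters, 250 bases before to 50 bases after the start of transcription in build GRCr8, were matched by symbol for 45 of the 55 members. They are written 5′ to 3′ on the strand of the gene, with motif matches in capitals. Ltbp2 lies at chr6:110257249-110257548 on the minus strand, Ltbp4 at chr1:91759758-91760057 on the minus strand, Bmp6 at chr17:26675212-26675511 on the minus strand and Tgfbr3 at chr14:2634044-2634343 on the plus strand.
Ltbp2: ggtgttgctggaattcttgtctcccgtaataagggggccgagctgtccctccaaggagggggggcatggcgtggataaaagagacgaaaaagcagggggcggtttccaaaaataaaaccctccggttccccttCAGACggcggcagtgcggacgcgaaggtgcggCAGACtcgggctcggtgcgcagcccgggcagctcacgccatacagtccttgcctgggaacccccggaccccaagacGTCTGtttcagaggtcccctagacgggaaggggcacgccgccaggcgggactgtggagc
Ltbp4: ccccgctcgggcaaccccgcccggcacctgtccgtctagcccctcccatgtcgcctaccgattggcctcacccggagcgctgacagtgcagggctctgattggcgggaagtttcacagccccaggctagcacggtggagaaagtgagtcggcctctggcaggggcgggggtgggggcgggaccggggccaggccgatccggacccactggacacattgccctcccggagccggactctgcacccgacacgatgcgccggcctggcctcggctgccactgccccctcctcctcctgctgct
Bmp6: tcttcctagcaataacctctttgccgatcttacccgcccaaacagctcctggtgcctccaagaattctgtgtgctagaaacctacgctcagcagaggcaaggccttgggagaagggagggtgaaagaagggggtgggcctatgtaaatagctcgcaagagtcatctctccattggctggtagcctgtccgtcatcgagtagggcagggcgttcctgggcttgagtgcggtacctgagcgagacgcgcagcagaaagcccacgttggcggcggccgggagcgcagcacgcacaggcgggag
Tgfbr3: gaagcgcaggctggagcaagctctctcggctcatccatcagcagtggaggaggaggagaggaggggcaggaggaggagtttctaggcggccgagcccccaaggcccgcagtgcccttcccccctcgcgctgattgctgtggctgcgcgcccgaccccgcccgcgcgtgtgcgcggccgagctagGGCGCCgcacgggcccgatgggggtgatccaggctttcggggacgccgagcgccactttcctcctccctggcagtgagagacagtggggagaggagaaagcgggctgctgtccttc
Motifs were searched on both strands, and no base lies in more than 1 of those in capitals. The SMAD box was first searched as CAGACA, which 21.1% of the 33469 promoters and 8 of the 45 member promoters hold and none of the 4 shown does. The shorter form CAGAC, which every CAGACA contains, was searched after that result was seen. It is in 50.1% of promoters and 17 of 45 member promoters, and Ltbp2 has 3 matches, beginning at bases -117, -85 and -9 from the start. The GC-rich SMAD element GGCGCC is in 11% of promoters and 13 of 45 member promoters, with 1 match in Tgfbr3 at base -66. AGAACA, the core hexamer of androgen and glucocorticoid receptor elements, is in 20.7% and 9 of 45, and AGGTCA, that of estrogen receptor elements, in 16.2% and 6 of 45. Neither is in the 4 windows, and Ltbp4 and Bmp6 hold none of the motifs. Matches of this length describe the letters of a window only. G and C make up 59.3% of the bases for Bmp6, 63.3% for Ltbp2, 69.7% for Tgfbr3 and 71% for Ltbp4.

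Among the latent binding proteins, Ltbp2 (ENSRNOG00000012094), a matrix protein that binds fibrillin fibres rather than latent TGF-beta itself, showed 1.34, 1.25, 1.13, 1.3 and 1.25 CPM in intact males 1, 2, 3, 5 and 6. GDX males 1, 2, 4, 5 and 6 had 1.48, 1.62, 3.92, 4.57 and 3.13 CPM. The intact males formed a tight group, GDX males 1 and 2 lay just above it, and the other 3 GDX males were far higher, so that the groups did not overlap. The change was 2.32-fold (log2 fold change 1.21 ± 0.31, adjusted p = 0.0254, SE after ±, n = 5 and 5). Ltbp1 (ENSRNOG00000033090), which holds the latent complex in the matrix, had 7.54, 9.3, 7.7, 5.88 and 3.35 CPM in the intact males and 9.66, 14.4, 16.3, 19.5 and 9.52 CPM in the GDX males, in the same order of rats. Intact male 6 was lowest, GDX male 5 highest, and GDX males 1 and 6 lay only just above intact male 2. Ltbp1 rose 2.06-fold (log2 fold change 1.04 ± 0.24, adjusted p = 0.0173). Ltbp4 (ENSRNOG00000020871), an LTBP that also takes part in elastic fibre assembly, gave 16.1, 14.5, 14.6, 15.8 and 17.7 CPM in intact males and 20.8, 22.3, 19.4, 24.4 and 19.1 CPM in GDX males. All 5 GDX males were above intact male 6, the highest of the controls, and the rise was 1.34-fold (log2 fold change 0.42 ± 0.08, adjusted p = 0.00939). Ltbp3, the remaining LTBP gene, stood at 82.6 ± 3.04 CPM (SD, n = 5) in intact and 80.9 ± 4.46 in GDX males (log2 fold change -0.03 ± 0.05, adjusted p = 0.726).

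Grem1 and Nog, which encode the BMP antagonists gremlin-1 and noggin, did not pass the test. Grem1 had 0.896 ± 0.259 CPM (SD, n = 5) in intact and 1.24 ± 0.419 CPM in GDX males (log2 fold change 0.45 ± 0.29, adjusted p = 0.38, edgeR). Nog had 3.15 ± 1.02 CPM in intact and 2.95 ± 0.353 CPM in GDX males (log2 fold change -0.11 ± 0.21, adjusted p = 0.812).

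Of the ligands, Bmp6 (ENSRNOG00000013717), a BMP known for its role in iron regulation and made by endothelial cells among others, was at 11.1, 7.6, 8.0, 6.94 and 5.65 CPM in intact males 1, 2, 3, 5 and 6. The GDX males had 10.3, 14.8, 16.8, 25.9 and 17.1 CPM, in the order 1, 2, 4, 5 and 6. Intact male 1 was above GDX male 1, while the other 4 GDX males exceeded every intact male and GDX male 5 stood out at the top. The change was 2.16-fold (log2 fold change 1.11 ± 0.21, adjusted p = 0.00848, n = 5 and 5, edgeR). Bmp4 (ENSRNOG00000009694), a ligand of the BMP type I receptors, ran from 12.7 to 13.9 CPM in intact males, as 12.8, 12.7, 12.8, 13.7 and 13.9. In GDX males it was 15.2, 14.3, 16.7, 15.7 and 15.2 CPM. These narrow ranges did not overlap, and the rise was 1.17-fold (log2 fold change 0.22 ± 0.07, adjusted p = 0.0611). Tgfb1 (ENSRNOG00000020652), a TGF-beta on which microglia depend, had 9.02, 9.37, 8.9, 8.11 and 10.1 CPM in intact and 10.3, 12.3, 11, 12.5 and 10.6 CPM in GDX males. GDX male 1 was only just above intact male 6, with no overlap, and the rise was 1.24-fold (log2 fold change 0.31 ± 0.09, adjusted p = 0.0492).

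Bmp7 (ENSRNOG00000053384), a BMP expressed in meninges, had 1.97, 0.59, 1.13, 0.743 and 1.05 CPM in intact males and 0.671, 1.91, 1.89, 4.5 and 2.67 CPM in GDX males. GDX male 1 lay among the lowest intact males and GDX male 5 was far above the rest, and the gene was not called (log2 fold change 1.08 ± 0.42, adjusted p = 0.133, edgeR). DESeq2 (adjusted p = 0.0794), the likelihood ratio test (0.0929) and a fit of all 22 rats (0.054) called it. Without GDX male 1 its log2 fold change was 1.31 (adjusted p = 0.0294), and without intact male 1 it was 1.40 (adjusted p = 0.0867). The 3 ligand genes with the most reads were not called. Gdf11, which encodes an activator of Smad2 and Smad3, had 72.9 ± 4.89 CPM (SD, n = 5) in intact and 67.2 ± 3.35 in GDX males (log2 fold change -0.12 ± 0.05, adjusted p = 0.17). Tgfb2 and Tgfb3, the other TGF-beta genes, had log2 fold changes of 0.05 ± 0.08 and 0.04 ± 0.09 with adjusted p of 0.746 and 0.835. The remaining tested ligands, Bmp2, Inha, Inhba and Inhbb, ran from -0.15 to 0.25 in males.

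Among the receptors, Tgfbr3 (ENSRNOG00000002093), betaglycan, a co-receptor that presents TGF-beta to its kinases and binds inhibin, had 32.1, 32.2, 28.6, 27.1 and 25.8 CPM in intact males 1, 2, 3, 5 and 6. The GDX males 1, 2, 4, 5 and 6 had 31.9, 35.9, 38, 53.1 and 39.8 CPM. GDX male 1 lay within the intact range, the other 4 lay above it, and GDX male 5 was well apart. The change was 1.36-fold (log2 fold change 0.44 ± 0.12, adjusted p = 0.0298, n = 5 and 5, edgeR). Tgfbr2 (ENSRNOG00000013265), the type II kinase that binds TGF-beta first, had 16.8, 15.3, 19.8, 17 and 15.8 CPM in intact and 23.4, 20.05, 19.5, 30.8 and 19.7 CPM in GDX males. GDX males 4 and 6 were below intact male 3, and GDX male 5 was the highest (1.33-fold, log2 fold change 0.42 ± 0.12, adjusted p = 0.0473). Tgfbr1 (ENSRNOG00000007036), the type I kinase it recruits, gave 35.8, 34.5, 36.1, 38.3 and 42.2 CPM in intact and 43.7, 44.7, 51.7, 55 and 37.8 CPM in GDX males. GDX male 6 fell within the intact range and the other 4 were above it (1.24-fold, log2 fold change 0.31 ± 0.09, adjusted p = 0.0473). Bmpr1a (ENSRNOG00000052469), a BMP type I kinase, had 62.4, 60.7, 65.5, 65.6 and 66.6 CPM in intact and 67.7, 67.6, 73.2, 72.7 and 71.5 CPM in GDX males. Its groups did not overlap, although GDX males 1 and 2 lay close to intact male 6 (1.1-fold, log2 fold change 0.13 ± 0.05, adjusted p = 0.0882). Bmpr2 had 141 ± 8.01 CPM (SD, n = 5) in intact and 138 ± 6.26 in GDX males (log2 fold change -0.04 ± 0.05, adjusted p = 0.641). The other 7 receptors, Bmpr1b and the 6 activin receptor genes, ran from -0.13 to 0.42 in log2 fold change, and none was called. Bmpr1b, another BMP type I kinase and named after its value was seen, was called without GDX male 2 (0.22, adjusted p = 0.0783) or intact male 5 (0.23, 0.0792).

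**Figure D2:**
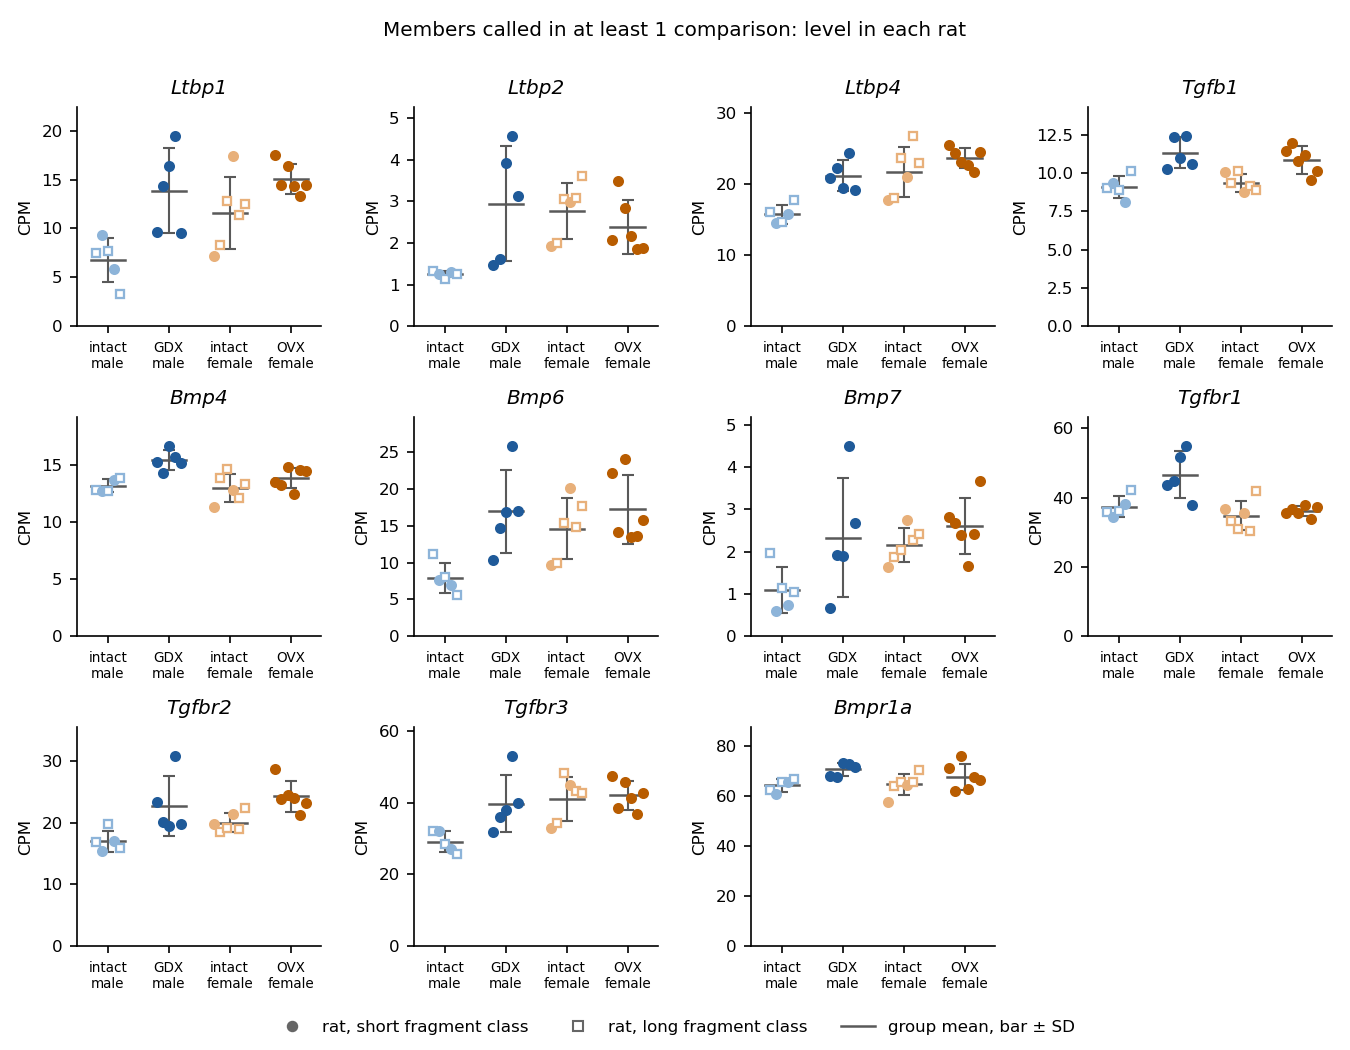
Level in CPM of the 11 members called in at least 1 comparison, with 1 point per rat in the 4 groups, circles for the short and open squares for the long fragment class, and lines for the group mean ± SD. Intact males have the lowest group mean for 9 of the 11 and intact females for Bmp4 and Tgfbr1.

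No SMAD gene was called in males by edgeR, 0 of 8, with none at an unadjusted p under 0.05 and a lowest adjusted p of 0.224. DESeq2 and edgeR's likelihood ratio test called 0 of them as well. Smad7, the inhibitory SMAD that TGF-beta itself induces, had 55.1 ± 4.81 CPM (SD, n = 5) in intact and 61.3 ± 6.2 in GDX males (log2 fold change 0.15 ± 0.07, adjusted p = 0.224). Without GDX male 4 it was called, at 0.20 (adjusted p = 0.0977). Smad4, the partner shared by both branches, had 48.1 ± 2.83 and 51.7 ± 2.48 CPM (log2 fold change 0.10 ± 0.05, adjusted p = 0.286). Smad1, which relays BMP signals, had 24.6 ± 1.97 and 23.5 ± 2.31 CPM (log2 fold change -0.07 ± 0.08, adjusted p = 0.622). The other 5 ran from -0.02 for Smad5 to 0.32 for Smad6. Bmp1, a protease that cleaves LTBP1 and procollagens, had 30.8 ± 2.14 and 31.6 ± 2.17 CPM (log2 fold change 0.03 ± 0.06, adjusted p = 0.80). RNA levels do not show whether SMAD proteins were phosphorylated, which was not measured.

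Within the short fragment class, with 5 GDX and 2 intact males, 2 of the 10 members were called, Bmp6 at 1.22 and Ltbp4 at 0.48, both with adjusted p = 0.0859 by edgeR. The log2 fold changes of all 10 ran from 0.16 to 1.22 there and were all positive, and the long class holds no GDX male. The count fell to 6 without intact male 2 or without GDX male 5, and to 4 with RNA integrity number as a term, 3 with fragment class (Bmp6, Ltbp4 and, lower at -0.22 with adjusted p = 0.0777, Gdf11) and 0 with the level of meningeal markers. The number of genes called in the whole table fell in these fits as well, from 1995 to 1480 and 1202 without these rats, 1262 with RNA integrity number, 796 with fragment class and 1 with the meningeal level. The log2 fold changes of the 10 members, 0.13 to 1.21 with all rats, ran from 0.12 to 1.13 with RNA integrity number and from 0.15 to 1.22 with fragment class. Bmp4 was not called by DESeq2, Bmpr1a not by the likelihood ratio test or in a fit of all 22 rats, and neither with no filter on low counts. Bmp6, Ltbp1, Ltbp2, Ltbp4 and Tgfbr3 were called whichever rat was left out. Tgfbr2 lost its call without intact male 2 (0.38, adjusted p = 0.107). Tgfb1 lost it without intact male 5, GDX male 2 or GDX male 5, at 0.27 to 0.28. Tgfbr1 lost it without intact males 1 or 2 or GDX males 4 or 5, at 0.24 to 0.30. Bmp4 lost it without intact males 1, 2 or 3 or GDX males 4 or 5, at 0.19 to 0.21. Bmpr1a was called only in the fits without GDX male 1 or without GDX male 2, and its value ran from 0.11 to 0.15 over the 10 fits.

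In females, none of the members was called after ovariectomy. The count was 0 of 39 by edgeR's quasi-likelihood test, where 0.0335% of 14910 genes were called, 0.0268% higher and 0.00671% lower, and 5 members had an unadjusted p under 0.05, as did 10.2% of all genes tested. Leaving out 1 rat gave 0 to 113 called genes in the whole table, against 5 with all rats, with 113 without intact female 1, and 0 members in each of these fits. DESeq2 and edgeR's likelihood ratio test each called 1, Tgfbr2, with adjusted p of 0.0585 and 0.0844. The median log2 fold change was 0.06 over the members and 0.00255 over all genes tested. No member had every OVX female above every intact female, against 0.315% of all genes tested. Among the 8 short-class libraries, with 6 OVX and 2 intact females, 0 of 40 members were called. The share of all genes called in that fit is not given here, so its 0 cannot be read as a result about the members. A p above the threshold does not show that the groups were alike.

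Tgfbr2 ranged from 18.5 to 22.4 CPM with a median of 19.4 in the 6 intact females and from 21.2 to 28.7 CPM with a median of 23.8 in the 6 OVX females. Of the OVX females, 5 of 6 lay above the highest intact female, and OVX female 5 lay within the intact range (1.22-fold, log2 fold change 0.28 ± 0.07, adjusted p = 0.185, edgeR). Tgfb1 ranged from 8.77 to 10.1 CPM with a median of 9.23 in intact and from 9.58 to 12 CPM with a median of 11 in OVX females. Again 5 of 6 OVX females were above every intact female and OVX female 5 was not (log2 fold change 0.21 ± 0.08, adjusted p = 0.355). Ltbp1 ranged from 7.16 to 17.4 CPM with a median of 12 in intact and from 13.3 to 17.5 CPM with a median of 14.4 in OVX females. Here 5 of 6 intact females were below every OVX female, and intact female 4 was among the highest (log2 fold change 0.39 ± 0.16, adjusted p = 0.424). Ltbp2 had a lower median after ovariectomy and ranged from 1.92 to 3.61 CPM with a median of 3.01 in intact and from 1.85 to 3.49 CPM with a median of 2.12 in OVX females. The ranges overlapped nearly in full (log2 fold change -0.21 ± 0.21, adjusted p = 0.804). Bmp6 ranged from 9.64 to 20.1 CPM with a median of 15.1 in intact and from 13.5 to 24 CPM with a median of 15 in OVX females, with OVX females 1 and 3 highest and intact females 1 and 2 lowest (log2 fold change 0.25 ± 0.19, adjusted p = 0.715). Intact female 1 had the lowest level of its group in 7 of the 10 members called in males, and OVX female 5 in 7. Of the remaining 5 members called in males, Bmp4, Bmpr1a, Tgfbr1, Tgfbr3 and Ltbp4, log2 fold changes in females ran from 0.04 to 0.13.

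Whether castration and ovariectomy differed in effect was tested as the interaction of sex and gonadectomy over all 22 rats. No member was called, 0 of 39 by edgeR's quasi-likelihood test, where 0.116% of 15562 genes were called, 0.09% with a larger male value and 0.0257% with a smaller one, and 7 members had an unadjusted p under 0.05, as did 11.6% of all genes tested. Leaving out 1 rat gave from 1 called gene in the whole table (without GDX male 5) to 275 (without GDX male 1), against 18 with all rats. DESeq2 and the likelihood ratio test each called 1, Ltbp2, with adjusted p of 0.0437 and 0.0531. Ltbp2 was 2.32-fold in males and 0.867-fold in females, a difference in log2 fold change of 1.43 ± 0.38 (adjusted p = 0.144, edgeR). It was called without GDX male 1 (1.60, adjusted p = 0.0506), GDX male 2 (1.59, 0.0771) or intact female 1 (1.52, 0.0879). Bmp6 differed by 0.87 ± 0.32 (adjusted p = 0.265), Ltbp1 by 0.66 ± 0.31 (0.41) and Tgfbr3 by 0.41 ± 0.16 (0.291). For Ltbp4 the difference was 0.30 ± 0.13 (0.354), for Tgfbr1 0.26 ± 0.12 (0.40), for Tgfbr2 0.14 ± 0.14 (0.774) and for Bmp4 0.14 ± 0.10 (0.617). For Tgfb1 it was 0.11 ± 0.11 (0.774) and for Bmpr1a 0.07 ± 0.07 (0.782). For none of the 10 members was the male response thus shown to differ from the female one by the quasi-likelihood test.

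With gonads in place, 5 members were lower in males than in females and none was higher. They were Ltbp2, Ltbp4, Bmp6, Bmp7 and Tgfbr3, 5 of 38 tested, where 2.56% of 14937 genes were called lower in males, 1.45% higher and 4.01% in either direction by edgeR. An unadjusted p under 0.05 was reached by 8 of 38 members and by 15.5% of all genes tested, and the median log2 fold change was -0.04 over the members and 0.00285 over all genes tested. In 3 of the 38, Ltbp2, Ltbp4 and Tgfbr3, every intact male lay below every intact female, as did 1.51% of all genes tested. This comparison and the male one use the same 5 intact males, so their values are given side by side and not counted as independent.

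The intact males' values stand above, and the 6 intact females had Ltbp2 from 1.92 to 3.61 CPM with a median of 3.01. The lowest female was above all 5 intact males (log2 fold change -1.13 ± 0.21, adjusted p = 0.0115, n = 5 and 6, edgeR). Ltbp4 ran from 17.8 to 26.8 CPM with a median of 22 in intact females, of which the lowest was barely above intact male 6 (log2 fold change -0.46 ± 0.10, adjusted p = 0.0267). Tgfbr3 ran from 33 to 48.3 CPM with a median of 43 in intact females, again with no overlap and with intact male 2 closest (log2 fold change -0.49 ± 0.10, adjusted p = 0.0161). Bmp6 ran from 9.64 to 20.1 CPM with a median of 15.1 in intact females. Intact male 1 lay within that range and the other 4 males below it (log2 fold change -0.89 ± 0.20, adjusted p = 0.0277). Bmp7 ran from 1.64 to 2.75 CPM with a median of 2.16 in intact females, with intact male 1 inside the range and the other 4 below (log2 fold change -0.97 ± 0.27, adjusted p = 0.082). Intact female 1 was the lowest female for all 5 genes and intact female 2 the next lowest. Ltbp1 ran from 7.16 to 17.4 CPM with a median of 12 in intact females and was not called, with intact males 5 and 6 below all females (log2 fold change -0.78 ± 0.24, adjusted p = 0.113). The likelihood ratio test (adjusted p = 0.0467), a fit of all 22 rats (0.072) and a fit with no filter on low counts (0.0839) called it. It was also called without intact female 1 (-0.89, adjusted p = 0.0440), intact female 2 (-0.86, adjusted p = 0.0824) or intact male 2 (-0.92, adjusted p = 0.0934). Tgfbr2 was called without intact male 3 (-0.29, adjusted p = 0.0485) or with RNA integrity number as a term (-0.25, 0.0843), and not with all rats (log2 fold change -0.23 ± 0.08, adjusted p = 0.131).

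In the long fragment class, 3 intact males against 4 intact females, 3 members were called, Ltbp2 (-1.23, adjusted p = 0.0582), Ltbp4 (-0.50, 0.0791) and Tgfbr3 (-0.55, 0.0328), while Bmp6 was at -0.81 and Bmp7 at -0.63 (edgeR). In the short class, 2 males against 2 females, 0 of 38 were called, with values of -0.92 for Ltbp2, -0.35 for Ltbp4, -0.39 for Tgfbr3, -1.02 for Bmp6 and -1.69 for Bmp7. The share of all genes called in either fit is not given here, so neither count can be read against the whole table. Bmp7 was called in 3 of the 11 fits that left out 1 rat, those without intact male 1, intact female 1 or intact female 2, and without any of the other 8 it was not, at -0.98 to -0.82. It was not called in a fit of all 22 rats or with no filter on low counts. With the level of meningeal markers as a term 0 members were called, and Bmp6 turned to 0.20. For that fit too the share of all genes called is not given, so a loss particular to members cannot be read from it.

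Without gonads no member was called between the sexes. Between GDX males and OVX females 0 of 39 were called by edgeR's quasi-likelihood test, where 0.232% of 15084 genes were, 0.119% higher and 0.113% lower in males, and 3 members had an unadjusted p under 0.05, as did 9.37% of all genes tested. The median log2 fold change was -0.08 over the members and -0.000283 over all genes tested. All of these libraries are of the short class. For the 5 members that were lower in intact males, the difference between GDX males and OVX females was 0.29 ± 0.29 for Ltbp2 (adjusted p = 0.796), -0.16 ± 0.07 for Ltbp4 (0.518), -0.02 ± 0.20 for Bmp6 (0.984), -0.16 ± 0.33 for Bmp7 (0.919) and -0.08 ± 0.11 for Tgfbr3 (0.861). Tgfbr1 ranged from 33.9 to 37.9 CPM with a median of 36.1 in OVX females. Of the GDX males 4 of 5 were above the highest of them, and GDX male 6 was just below it. Its log2 fold change was 0.37 ± 0.08 (adjusted p = 0.119), while DESeq2 and the likelihood ratio test called it, with adjusted p of 0.0076 and 0.0111. A fit of all 22 rats (0.0691), no filter on low counts (0.0662) and the meningeal level as a term (0.0429) gave adjusted p under 0.1 as well. It was also called without GDX male 6 (0.43, adjusted p = 0.0165).

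**Figure D3:**
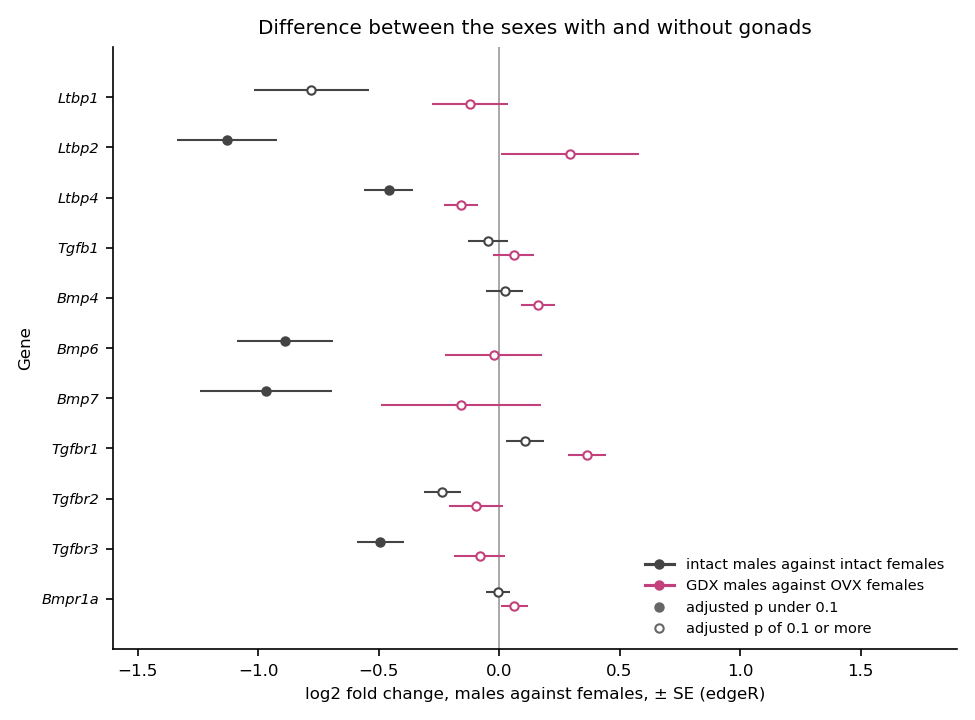
Log2 fold change of males against females, ± SE from edgeR, for the 11 members called in at least 1 comparison, with gonads in dark grey and without in pink, and filled points for an adjusted p under 0.1. The 5 filled points are Ltbp2, Ltbp4, Bmp6, Bmp7 and Tgfbr3 in intact rats, and no point is filled without gonads.

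The fragment class was compared within intact rats, 7 long against 4 short libraries with sex as a term. Of 38 members 0 were called by edgeR's quasi-likelihood test, the one tool used for this comparison, against 0.0066% of 15147 genes, and 1 had an unadjusted p under 0.05, as did 7.72% of all genes tested. Log2 fold changes of members ran from -0.19 to 0.38. The class of a library and the removal of the gonads cannot be told apart for the long class, which no gonadectomized rat belongs to. Of the marker lists described below, 0 genes were called by class, but all 8 motor neuron markers were higher in the long class (median log2 fold change 0.39, 7 at an unadjusted p under 0.05), as were 7 of 8 neuron markers (median 0.11, 5 at an unadjusted p under 0.05). In the other 11 lists 0 or 1 gene reached that p. Among these, all 5 tested Schwann cell markers were higher in the long class (median log2 fold change 0.62, 1 at that p). All 6 ependymal markers were lower in it (median -0.41, 0 at that p).

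Other genes of the pathway were taken from lists of co-receptors, secreted antagonists, proteins that anchor or activate latent TGF-beta, SMAD partners and known transcriptional targets. Of 66 in the table, 49 were tested in males, and 15 rose and 1 fell after castration, where 6.78% of all genes tested were called higher and 6.58% lower, with a median log2 fold change of 0.11. The targets gave 7 of 16 higher, the anchoring and activating proteins 4 of 7, the antagonists and binders 2 of 10, the co-receptors 1 of 5, and the SMAD partners 1 higher and 1 lower of 11. These calls come from the main fit only. What part fragment class, RNA integrity number, single rats or the meningeal level had in them was not tested. Activity of the pathway was not measured. In females 0 of 51 were called by edgeR, where 0.0335% of all genes tested were, with 6 at an unadjusted p under 0.05, as were 10.2% of all genes tested. The 5 other ligands of the superfamily, Mstn, Nodal, Lefty1, Lefty2 and Amh, had too few reads for a test.

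Among the targets, Id1, a BMP-induced inhibitor of basic helix-loop-helix factors, had 3.73, 4.87, 3.77, 4.33 and 4.73 CPM in intact males 1, 2, 3, 5 and 6 and 5.23, 6.78, 6.76, 8.23 and 8.54 CPM in GDX males 1, 2, 4, 5 and 6. Every GDX male lay above every intact male (1.65-fold, log2 fold change 0.72 ± 0.15, adjusted p = 0.0121, edgeR). Id3, another BMP target of that family, had 5.64, 7.01, 7.02, 7.37 and 6.57 CPM in intact and 8.85, 8.98, 8.78, 9.85 and 9.46 CPM in GDX males, also without overlap (log2 fold change 0.45 ± 0.10, adjusted p = 0.0156). Ccn2, connective tissue growth factor and a TGF-beta target, had 5.99, 6.05, 4.9, 3.1 and 4.14 CPM in intact and 6.5, 6.9, 8.38, 16.2 and 11.7 CPM in GDX males. GDX male 5 was highest, and GDX males 1 and 2 lay close to intact male 2 (2.05-fold, log2 fold change 1.04 ± 0.25, adjusted p = 0.0215). The matrix genes Col1a1, Col3a1 and Fn1 had the largest log2 fold changes of the 16 targets tested. Fn1, fibronectin, had 55.5, 44.3, 47.6, 40.2 and 39.3 CPM in intact and 71.7, 85.4, 108, 171 and 127 CPM in GDX males without overlap (2.48-fold, log2 fold change 1.31 ± 0.19, adjusted p = 0.00346). Col1a1, a fibrillar collagen chain, ranged from 15.9 to 63.1 CPM in intact males and from 42.8 to 160.3 CPM in GDX males. GDX male 1 lay below intact male 1 (3.51-fold, log2 fold change 1.81 ± 0.35, adjusted p = 0.00848). Col3a1, another fibrillar collagen, ranged from 15.6 to 42.9 CPM in intact and from 45.6 to 148 CPM in GDX males (3.31-fold, log2 fold change 1.73 ± 0.29, adjusted p = 0.00607).

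Of the proteins that activate latent TGF-beta, thrombospondin-1 (Thbs1), which can release the ligand from its complex, had 1.62, 0.959, 2.72, 0.681 and 1.12 CPM in intact and 1.81, 3.53, 5.81, 12.4 and 6.85 CPM in GDX males. GDX male 1 lay below intact male 3, and GDX male 5 was highest (4.31-fold, log2 fold change 2.11 ± 0.46, adjusted p = 0.0131, edgeR). Lrrc32, which tethers latent TGF-beta to the cell surface, ran from 1.42 to 2.51 CPM in intact and from 2.41 to 4.57 CPM in GDX males, with GDX male 1 just below intact male 2 (1.76-fold, log2 fold change 0.82 ± 0.22, adjusted p = 0.0337). Rgma, a BMP co-receptor and axon guidance molecule, had 31.6, 43.5, 36.7, 41 and 36.4 CPM in intact and 49, 51.3, 45.5, 54.7 and 50.5 CPM in GDX males, without overlap (1.32-fold, log2 fold change 0.40 ± 0.08, adjusted p = 0.00848). In OVX females Rgma was 0.904-fold of intact females (log2 fold change -0.14 ± 0.06, adjusted p = 0.439), and it was the 1 pathway gene of 52 called in the interaction (0.55 ± 0.10, adjusted p = 0.063). Nbl1, a secreted BMP antagonist, was at 34.5 ± 4.98 CPM (SD, n = 5) in intact and 45.6 ± 6.34 CPM in GDX males (log2 fold change 0.39 ± 0.10, adjusted p = 0.0295). The 1 gene that fell, Pmepa1, a TGF-beta-induced inhibitor of SMAD signalling named after its value was seen, had 69, 70.2, 70.5, 88.9 and 54.1 CPM in intact and 59, 51, 54.6, 47.7 and 61.6 CPM in GDX males. These ranges overlapped (0.774-fold, log2 fold change -0.37 ± 0.10, adjusted p = 0.0389). The other 5 that rose had log2 fold changes of 0.15 to 0.65.

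Between intact males and intact females 5 of 49 pathway genes were called lower in males and none higher, where 2.56% of all genes tested were called lower and 1.45% higher. They were Rgma (-0.38 ± 0.07), Thbs1 (-1.80 ± 0.46), Ccn2 (-1.02 ± 0.19), Col3a1 (-1.52 ± 0.33) and Fn1 (-1.10 ± 0.19), as log2 fold changes. All 5 were also among those that rose in GDX males, in comparisons that share the intact males. Between GDX males and OVX females 0 of 51 were called by edgeR, where 0.232% of all genes tested were, with 7 at an unadjusted p under 0.05, as were 9.37% of all genes tested.

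**Figure D4:**
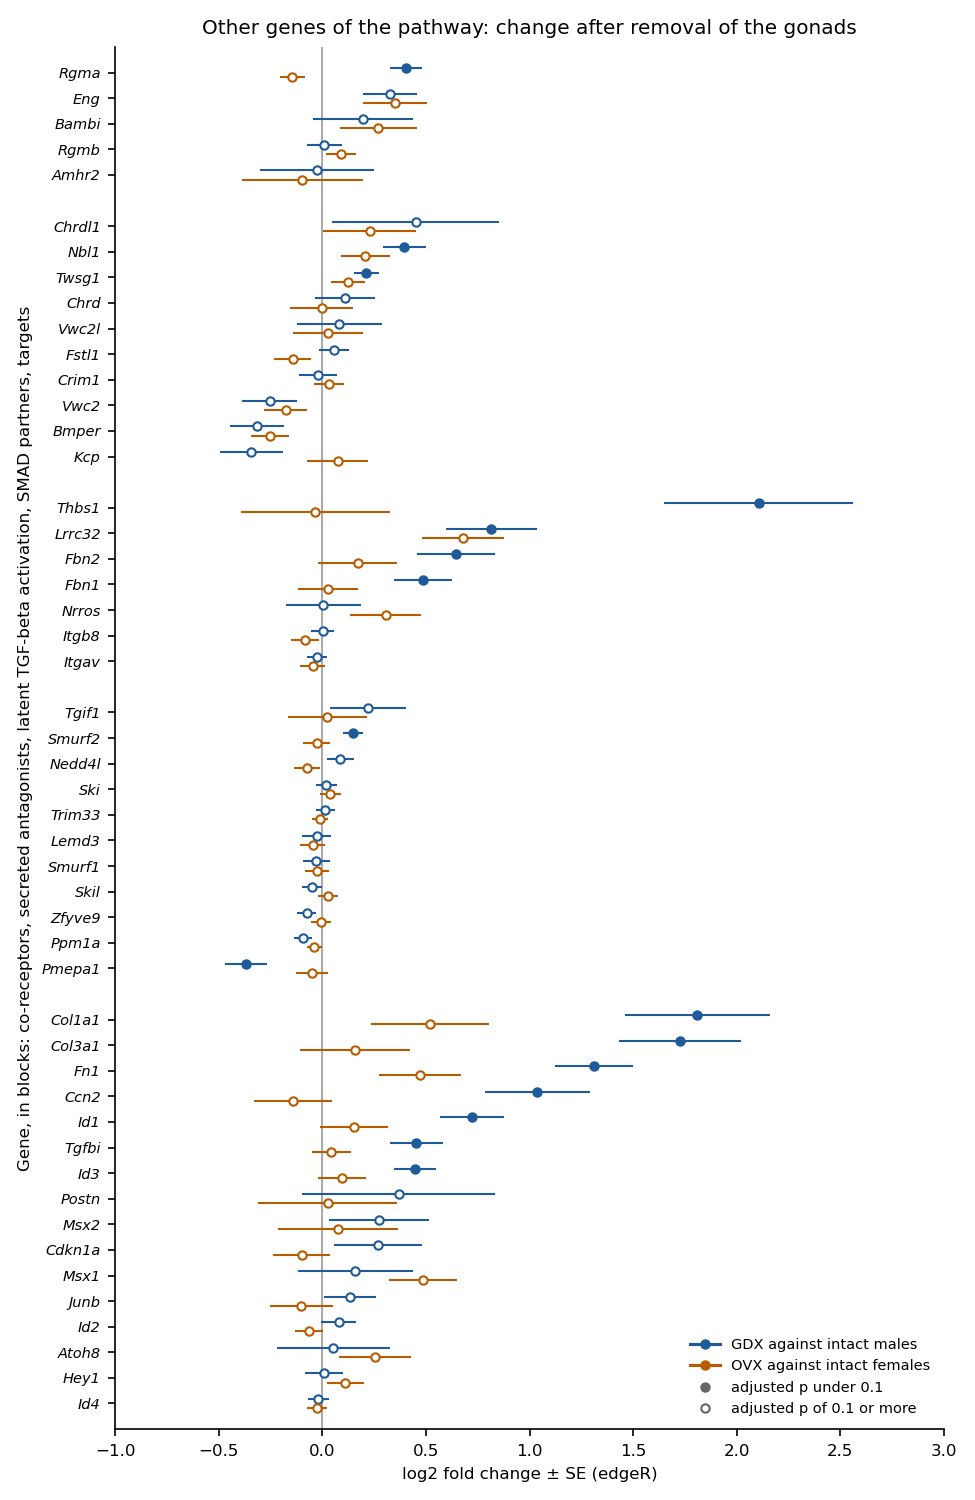
Log2 fold change after removal of the gonads, ± SE from edgeR, of the other pathway genes tested, in males (blue) and females (orange), in blocks by role, with filled points for an adjusted p under 0.1. In males 15 genes are filled on the right and Pmepa1 on the left, and none is filled in females.

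Levels of marker lists of cell types are given beside the members. The lists were chosen with earlier results of these data known, so their counts and p-values are not an independent test. Markers of meninges and fibroblasts, which contain no member and none of the targets above, moved with castration. All 15 tested genes of this list were called higher in GDX males, with a median log2 fold change of 1.53. Their summed level was 88.6, 79.1, 81.6, 57.2 and 46.2 CPM in intact males 1, 2, 3, 5 and 6 and 116, 134, 192, 331 and 214 CPM in GDX males 1, 2, 4, 5 and 6. The groups did not overlap, GDX males 1 and 2 were the lowest of their group and GDX male 5 the highest, and intact male 6 was the lowest of all. The mean log2 CPM of the list was 2.60 ± 0.62 (SD, n = 5) against 1.28 ± 0.36 (difference 1.33, exact p = 0.00794, adjusted p = 0.0413). That p, from an exact two-sided permutation test, is the smallest 5 against 5 rats allow, and the adjustment is over 13 lists in both sexes, 26 tests. Dcn added the most CPM to the sum over all 22 rats, averaging 11.4 CPM in intact and 22.6 in GDX males. In GDX males Slc6a20 and Aldh1a2 added more to the sum than Dcn, averaging 29.9 and 24.7 CPM. No gene of the list was at 0 in a whole group, though Ogn, too low for a test, had no read in at least 1 rat. Among short-class libraries the difference was 1.32. In females 0 of 15 were called by edgeR (difference 0.15, exact p = 0.537, adjusted p = 0.634), with sums of 97.9 to 229 CPM in intact and 135 to 258 CPM in OVX females. Intact females 1 and 2, the lowest for the members called between the sexes, also had the lowest sums, 117 and 97.9 CPM.

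With the mean level of this list as a term in the fit, 0 members were called in males, and the log2 fold changes of the 10 ran from -0.14 for Tgfbr3 to 0.39 for Ltbp4, with Ltbp2 at -0.058 and Bmp6 at 0.08. This term separates GDX from intact males in full, and 1 gene of the whole table was called with it. What part the amount of meningeal tissue had in the members' levels was not tested.

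Vessel markers were also among the genes higher in GDX males. Of the endothelial list 7 of 10 tested genes were called, with sums of 146, 211, 169.8, 190.0 and 182 CPM in intact males 1, 2, 3, 5 and 6 and 284, 299, 244, 245 and 227 CPM in GDX males 1, 2, 4, 5 and 6 (difference 0.47, exact p = 0.0159, adjusted p = 0.0516). In these sums all GDX males were above every intact male. The mean log2 CPM, which the test used, overlapped, with GDX male 6 at 3.40 and intact male 2 at 3.42. Flt1 added the most CPM to the sum over all 22 rats, averaging 38 CPM in intact and 55.5 in GDX males. Of the pericyte and smooth muscle list 5 of 11 were called, with sums of 134, 166, 159.6, 174 and 154 CPM in intact and 218, 223, 195, 199 and 189 CPM in GDX males (difference 0.38, exact p = 0.0159, adjusted p = 0.0516). These sums did not overlap either, but the tested mean log2 CPM did, with GDX male 6 at 2.96 and intact male 5 at 3.01. Myh11 added the most CPM to the sum over all 22 rats, averaging 38.3 CPM in intact and 49.9 in GDX males. In OVX females 0 of 10 and 0 of 11 were called by edgeR (endothelial difference 0.36, exact p = 0.0498, adjusted p = 0.108, pericyte and smooth muscle difference 0.35, exact p = 0.0281, adjusted p = 0.0813). Erythroid genes, from blood, gave 4 of 4 higher in GDX males, with sums of 22.6, 16.7, 9.05, 10.2 and 12.1 CPM in intact and 18.6, 22.2, 96.5, 34.6 and 57 CPM in GDX males (difference 1.40, exact p = 0.0397, adjusted p = 0.0938), and 0 of 5 called in OVX females (difference 1.01, exact p = 0.00216, adjusted p = 0.0413). The symbol Hba-a2 stands for 2 genes of the table, both among these 4, of which 1 averaged 6.53 CPM in intact and 21.6 in GDX males, the most of the list, and the other 4.91 and 16.1. What part vessels or blood had in the members' levels was not tested.

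Of the neuron markers 3 of 8 were called lower in GDX males, with sums of 13818, 12650.5, 14452, 13157 and 18193 CPM in intact and 12569.6, 13041, 11366, 11729.6 and 13359 CPM in GDX males (difference -0.18, exact p = 0.00794, adjusted p = 0.0413). These sums overlapped, and intact male 6 was well above the rest. The tested mean log2 CPM did not overlap, with the highest GDX male at 9.07 and the lowest intact male at 9.10. Nefm added the most CPM to the sum over all 22 rats, averaging 5953 CPM in intact and 4988 in GDX males. In OVX females 0 of 8 were called (difference -0.15, exact p = 0.00433, adjusted p = 0.0413). Astrocyte markers had 2 of 9 higher and 1 lower in GDX males, with sums of 5705, 6062, 6302, 6348 and 5974 CPM in intact and 7159, 7179.6, 6851, 7736 and 7192 CPM in GDX males (difference 0.08, exact p = 0.00794, adjusted p = 0.0413), and 0 of 9 in OVX females (difference 0.05, exact p = 0.0758, adjusted p = 0.131). The sums did not overlap, and Gfap added the most CPM to the sum over all 22 rats, averaging 3055 CPM in intact and 3990.1 in GDX males. Ventral cord holds motor neurons, and all 8 of their markers had enough reads for a test in each sex, with 1 lower in GDX males (difference -0.16, exact p = 0.429, adjusted p = 0.557) and 0 called in OVX females (difference -0.40, exact p = 0.0108, adjusted p = 0.0469). All 8 motor neuron and 7 of 8 neuron markers were also lower in the short than in the long class of intact rats, as given above, and all gonadectomized rats are short. What part the class had in these differences was not tested.

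The other 6 lists are given by the difference of mean log2 CPM between gonadectomized and intact rats, with exact permutation tests. For microglia it was 0.16 in males (exact p = 0.103) and 0.13 in females (exact p = 0.0606). For oligodendrocytes it was 0.07 in males (exact p = 0.0397) and 0.04 in females (exact p = 0.0887), and for their precursors 0.04 in males (exact p = 0.349) and 0.04 in females (exact p = 0.613). For dorsal horn neurons, of which 4 of 8 markers were tested in males, it was 0.08 in males (exact p = 0.651) and -0.05 in females (exact p = 0.786), with lists taken whole, while the median log2 fold change of the 4 tested was -0.15 and the mean sum was 10.7 CPM in intact and 10.01 in GDX males. Schwann cell markers gave 0.77 in males (exact p = 0.119) and -0.12 in females (exact p = 0.53), and ependymal markers 0.11 in males (exact p = 0.762) and 0.23 in females (exact p = 0.0649). After adjustment over the 26 tests these p-values lay between 0.0938 and 0.786, and genes called in males were 0 for microglia, 2 higher of 10 for oligodendrocytes, 1 higher of 6 for precursors, 0 of 4 for dorsal horn neurons, 2 higher of 5 for Schwann cells and 0 of 6 for ependyma.

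Marker genes were counted between the sexes as well. Of the meningeal and fibroblast list 12 of 15 were called lower in intact males than in intact females by edgeR, where 2.56% of all genes tested were, with a median log2 fold change of -1.28. Of the Schwann cell list 3 of 5 were lower, with a median of -1.50. The endothelial list had 1 lower of 10, the neuron list 1 higher of 8 and the oligodendrocyte precursor list 1 higher of 6. The other 8 lists had 0 called, with 0 to 5 genes each at an unadjusted p under 0.05. Between GDX males and OVX females 0 genes of the 13 lists were called by edgeR, with 0 to 2 a list at an unadjusted p under 0.05, and the median of the meningeal list was 0.0126. These counts between the sexes come from edgeR's quasi-likelihood test, the one tool used for them.

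**Figure D5:**
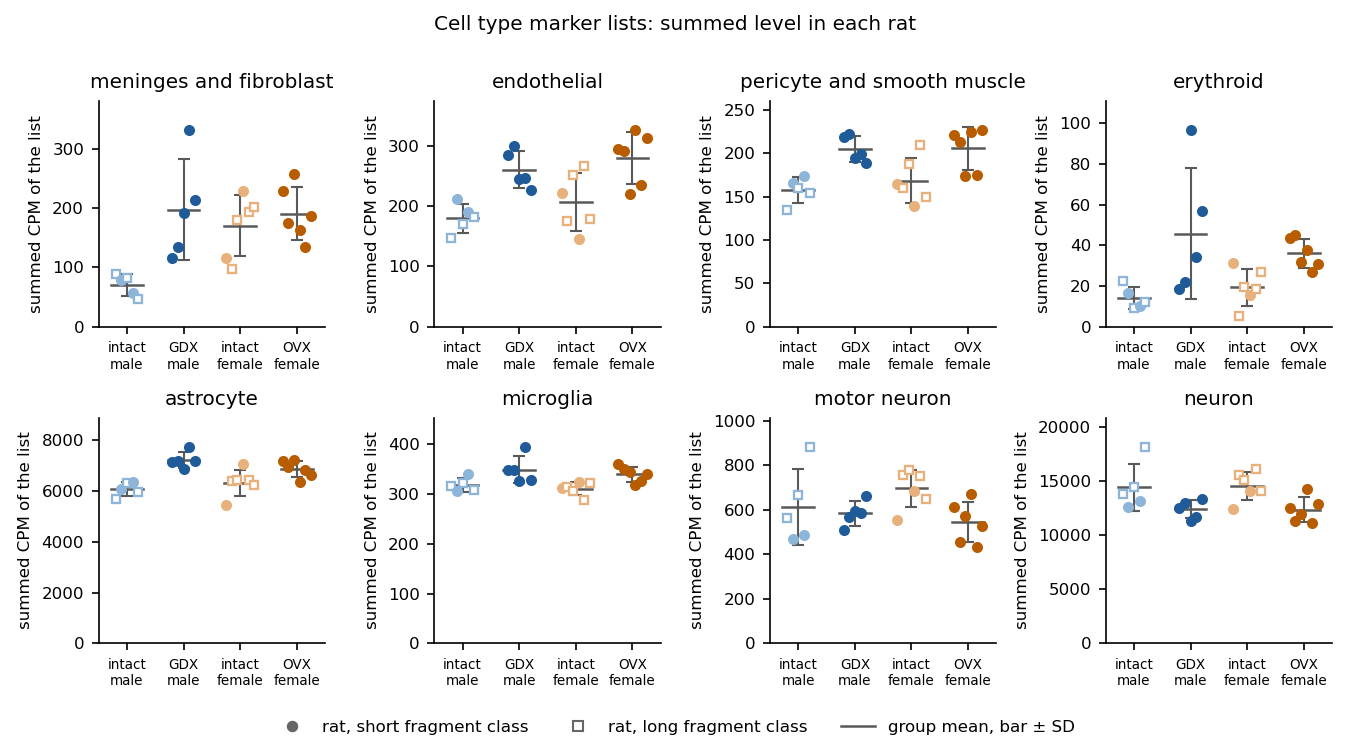
Summed level in CPM of 8 marker lists, 1 point per rat in the 4 groups, circles for the short and open squares for the long fragment class, and lines for the group mean ± SD. For meninges and fibroblasts the intact males lie between 46.2 and 88.6 CPM, below every rat of the other groups.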

How the data were processed

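The authors deposited counts of reads per gene, not normalized, for 22 libraries, 1 per rat, used as they are. The submitters' notes name TopHat2 2.0.13 and the paper Hisat2 for mapping to Rnor_6.0, with Subread for counting, and strand and multi-mapping settings are not given in the sources used. Each comparison was fitted alone in edgeR 4.0.16 (R 4.3.3) with filterByExpr, TMM factors, glmQLFit and glmQLFTest, Benjamini-Hochberg adjustment over all genes tested and an adjusted p under 0.1; the interaction used all 22 rats. Log2 CPM had a prior count of 2. The 13 marker lists were compared by exact permutation tests of their mean, adjusted over 26 tests. Alternatives were DESeq2 1.42.0, edgeR's likelihood ratio test, RLE factors, no filter or 1 CPM, all rats in 1 fit, rat number as a block, RNA integrity number, fragment class or meningeal level as a term, short libraries only, and each rat left out. A fit of long libraries only was chosen after seeing the data. Members named with values are those called in any of the 5 group comparisons and the 3 with the most reads of each role, and of pathway genes the called ones, up to 10 with the smallest p per comparison. Grem1, Nog, Bmp1, Bmp5, Bmpr1b, Pmepa1 and the ends of ranges were named outside this rule. Members and lists were chosen with earlier results of these data known. Motif searches used RefSeq promoters. A related gene is not reported here. The pipeline was tested on simulated data. Listed genes missing from the table, Col1a2 among them, were not analysed.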

Additional observations from a re-analysis of the deposited data

Results flagged for a closer look

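Smad1 in intact female 6 was 28.8 CPM, where the other 5 intact females had 24.3 to 25.8 CPM. The gap between this rat and the nearest of the others was large against the range of the group by Dixon's test at 95%. It was the 1 value found in 76 groups searched, and chance alone marks about 1 in 20 groups. The cause was not tested.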

How the results depend on the processing

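Members called between GDX and intact males numbered 10 and became 4 with rat number as a block, 4 with RNA integrity number as a term, 3 with fragment class as a term, 2 among short libraries only and 0 with the meningeal level as a term. Their log2 fold changes, 0.13 to 1.21 in the main fit, ran from 0.13 to 1.09, 0.12 to 1.13, 0.15 to 1.22 and 0.16 to 1.22 under the first 4 of these, with none reversed, and genes called in the whole table fell from 1995 to 1274, 1262, 796, 440 and 1 in that order. With the meningeal term Tgfbr3 turned to -0.14 and Ltbp2 to -0.058 in males, and Bmp6 to 0.20 between intact males and intact females. Members called between the intact sexes numbered 5 and became 3 among long libraries only (chosen after seeing the data), 2 with rat number as a block and 0 among short libraries only or with the meningeal level as a term. Counts of all genes called are not given here for these fits, so the falls cannot be read as particular to the members. In the female comparison and in the interaction, 0 became 1 with DESeq2 and 1 with the likelihood ratio test. Between GDX males and OVX females 0 became 1 with DESeq2, the likelihood ratio test, no filter on low counts, all 22 rats in 1 fit or the meningeal level as a term. Leaving out 1 rat gave 6 to 11 members in males, 0 to 0 in females, 0 to 1 in the interaction, 4 to 6 between intact sexes and 0 to 1 between GDX males and OVX females. In the same fits and order 1202 to 2446, 0 to 113, 1 to 275, 352 to 777 and 23 to 44 genes were called in the whole table, against 1995, 5, 18, 599 and 35 with all rats. The meningeal list's difference was 1.11 to 1.48 in males and 0.02 to 0.25 in females over these fits. Residuals of rats with the same number correlated by at most 0.0627. They were not set beside those of rats with different numbers, so whether rat numbers mark pairs is not settled. Fewer rats remain in the short and long libraries, and for the other settings the cause was not tested.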
